A study of Mus musculus with 12 samples.

Results

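Mouse T helper 17 (Th17) cells grown with a pair of compounds, ILA and GSK805, were compared with cells of the same kind grown with vehicle. The comparison rests on 3 libraries of cells given both compounds and 3 libraries of vehicle cells, 6 of the 12 in the series, chosen by their titles. It covers the 13058 of 29522 annotated genes that averaged 1 FPKM or more (fragments per kilobase of exon, scaled to library size) in either group. Naive CD4+ T cells came from the spleens of wild-type C57BL/6J mice, were activated through CD3 and CD28 and were cultured in RPMI 1640 with a commercial Th17 differentiation kit (CytoBox Th17). The vehicle cells received neither compound. The treated cells received ILA at 200 uM together with GSK805 at 0.5 uM, and the series also holds 3 libraries with each compound alone at the same dose. Total RNA was taken from whole cultures, so fewer cells of a type and less RNA per cell cannot be told apart in any value below. The labels call the libraries biological replicates and name no animals or cultures, so each p-value covers the spread among the libraries sequenced and that spread may be technical in part.

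Th17 cells are the helper T cells that secrete IL-17A, IL-17F and related cytokines at mucosal surfaces. GSK805 is a small-molecule inhibitor of their differentiation. Many nuclear receptors bind DNA elements with the half-site AGGTCA. The labels give ILA only as an abbreviation, taken here to be indole-3-lactic acid, which intestinal bacteria produce when they break down tryptophan. Such indoles can activate the aryl hydrocarbon receptor (AhR), a ligand-gated transcription factor that pairs with ARNT at DNA sites with the core GCGTG and induces cytochrome P450 genes, and that is abundant in Th17 cells. The comparison asks how the transcriptome of Th17 cultures differs when both compounds are present from when neither is.

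The 6 libraries held 18.62 M to 23.49 M reads as recovered from the FPKM steps, at which 1 read in a 1 kb gene is worth 0.0426 to 0.0537 FPKM. CD4+ T cell markers summed to 402, 439 and 425 FPKM with vehicle and to 695, 760 and 750 FPKM with both compounds. Each marker list of other cells summed to far less than the CD4+ T cell markers in both groups, though some of their genes were expressed. The B cell list summed to 2.05 to 2.48 FPKM with vehicle and 1.89 to 2.15 with both compounds, with 6 of its 7 genes below 1 FPKM in all 6 libraries. For CD8 T and NK cells the sums ran from 20.6 to 24.5 FPKM and from 20.9 to 22.1, with 6 of 9 genes below 1 FPKM, and for myeloid cells from 17.8 to 20.8 and from 17.1 to 20.6, with 10 of 13. Erythroid and platelet markers gave 1.82 to 2.29 FPKM and 1.62 to 2.17, with the haemoglobin genes Hba-a1, Hba-a2 and Hbb-bt at 0 in all 6 libraries. Gamma delta T cell markers summed to 1.73 to 2.96 FPKM with vehicle and to 0.64 to 1.38 with both compounds. The stromal list summed to 15.3 to 17.3 FPKM with vehicle and to 29.2 to 30.4 with both compounds, mostly through the adhesion gene Epcam (11.1, 11.2 and 12.7 FPKM with vehicle and 22.7, 22.02 and 23.8 FPKM with both compounds), while the endothelial Cdh5 was at 0 in every library. The part that other cells play in the results below was not tested.

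Of the 13058 genes, 7002 (53.6%) passed limma's test at a Benjamini-Hochberg adjusted p below 0.05, 4258 of them (32.6%) higher and 2744 (21.0%) lower with both compounds. Most differences were small, with 4763 of the calls (68.0%) under 1.5-fold and a median absolute log2 difference of 0.42 among called genes. At least 2-fold differences were found for 468 higher genes (3.58%) and 209 lower genes (1.6%), and at least 4-fold differences for 15 and 18. The 3 libraries of one group lay entirely above or below those of the other for 7889 genes (60.4%), among them every called gene named below. The 12 largest rises and 12 largest falls named below were taken from such genes, so their separation is not a further result. The balance of directions depended on scaling, as 60.8% of calls were higher on the deposited scale, 47.6% after quantile normalization and 39.9% after centring each library on its median gene. The median over all tested genes was a log2 difference of 0.06, and it moved by 0.14 with that centring. All log2 differences are of log2(FPKM + 1), which understates the change of genes near or below 1 FPKM. Of the tested genes, 1195 entered through a mean of 1 FPKM in a single group, which favours genes that differ, so counts over gene lists below are given with the number of members that entered that way. Among the 11863 genes that reached 1 FPKM on average in each group, 3830 were higher and 2525 lower. The shares over all genes, 32.6% higher and 21.0% lower, are to be read beside each list count against vehicle below, and are repeated for some. No list was tested against them.

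**Figure D1:**
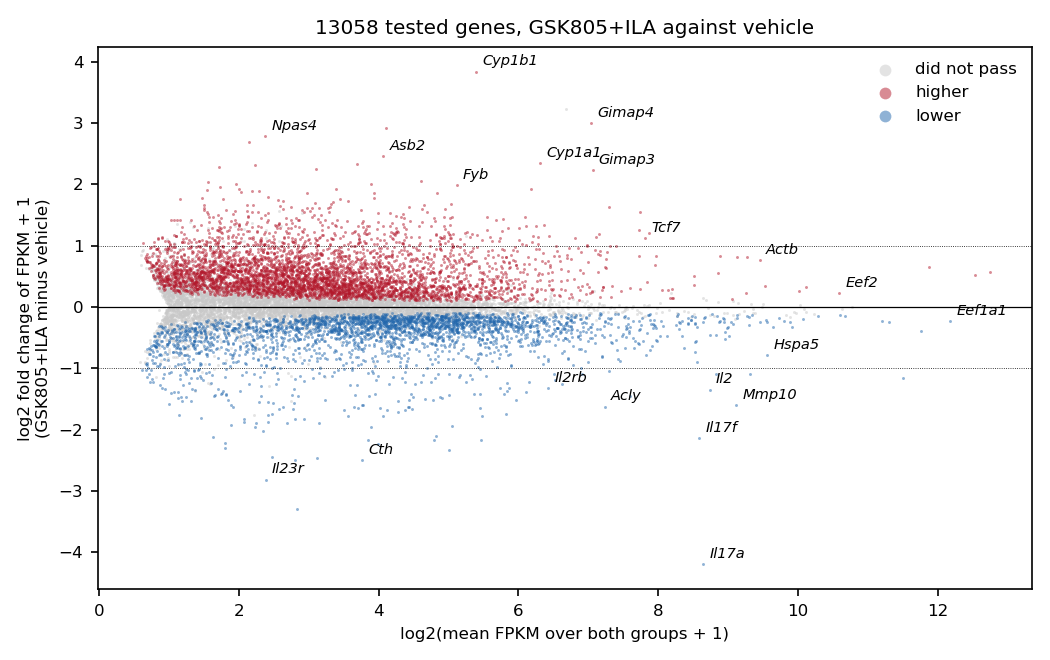
Log2 difference of FPKM + 1 between both compounds and vehicle (y axis) of each of the 13058 tested genes, against the log2 of mean FPKM + 1 over the 6 libraries (x axis), with the 4258 higher and 2744 lower calls coloured. Dotted lines mark 2-fold, and the labelled genes farthest from 0 are Cyp1b1 and Gimap4 above and Il17a below.

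Nearly all measured signature cytokines of the Th17 lineage fell. Of 7 tested Th17 cytokines 6 were lower and none was higher, with a median log2 difference of -2.14, and 1 of the 6 entered through the vehicle group only. Il17a, which encodes the defining cytokine IL-17A, stood at 634, 803 and 832 FPKM with vehicle and 36.4, 38.5 and 45.5 FPKM with both compounds. It was 18.4-fold lower (log2 fold change -4.20, SE 0.12, limma adjusted p = 2.85e-09), and even the highest treated library held a small fraction of the lowest vehicle library. Il17f, its neighbour on chromosome 1 and a cytokine that pairs with IL-17A, stood at 564, 652 and 656 FPKM with vehicle and 131, 142 and 148 FPKM with both compounds (log2 fold change -2.14, SE 0.07, limma adjusted p = 3.29e-09). Il21, a cytokine that amplifies Th17 differentiation, measured 65.98, 72.2 and 75.3 FPKM with vehicle and 13.1, 16.9 and 15.5 FPKM with both compounds (log2 fold change -2.16, SE 0.08, limma adjusted p = 5.24e-09). Ccl20, the chemokine that recruits CCR6-bearing cells, measured 21.7, 25.1 and 28.3 FPKM with vehicle and 2.83, 4.92 and 6.26 FPKM with both compounds (log2 fold change -2.24, SE 0.19, limma adjusted p = 3.02e-06). Csf2, encoding GM-CSF, measured 22.1, 35.6 and 39.1 FPKM with vehicle and 9.26, 10.3 and 12.9 FPKM with both compounds (log2 fold change -1.46, SE 0.27, limma adjusted p = 0.00107). Il22, a cytokine that acts on epithelium, was near the filter at 1.42, 2.898 and 4.59 FPKM with vehicle and 0.484, 0.522 and 0.997 FPKM with both compounds, and its highest treated library lay below its lowest vehicle library (log2 fold change -1.18, SE 0.28, limma adjusted p = 0.00413). Il9 was the 1 member that did not pass, at 2.86, 2.18 and 0.633 FPKM with vehicle and 1.904, 0.748 and 0.953 FPKM with both compounds (adjusted p = 0.409), with overlapping groups. Il17c, Il17d and Il25 were below the filter.

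The cytokine genes differed in how both compounds compared with each compound alone. Across all tested genes, 2440 (18.7%) passed between both compounds and ILA alone, 8.44% of all being lower, and 5303 (40.6%) passed between both compounds and GSK805 alone, 18.1% being lower. Il17a averaged 159 ± 11.5 FPKM with ILA alone and 109 ± 12.2 with GSK805 alone (SD, n = 3), against 40.1 ± 4.75 with both. The level with both compounds was below each of the others by limma's test (adjusted p = 1.33e-05 against ILA and 6e-06 against GSK805). For Il17f the single compounds left 279 and 269 FPKM and the pair 140.4, again lower than either (limma adjusted p = 1.76e-05 and 2.06e-06). Ccl20 differed from ILA alone, where it averaged 16.5 FPKM (limma adjusted p = 0.000278), but the test did not separate it from GSK805 alone at 6.35 FPKM (adjusted p = 0.0957). Il22 averaged 6.51 FPKM with ILA alone, above the 0.668 FPKM with both compounds (limma adjusted p = 0.000587), and 0.414 FPKM with GSK805 alone (adjusted p = 0.546). Csf2 passed against neither single compound, which averaged 14.7 and 12.2 FPKM (limma adjusted p = 0.386 and 0.704).

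**Figure D2:**
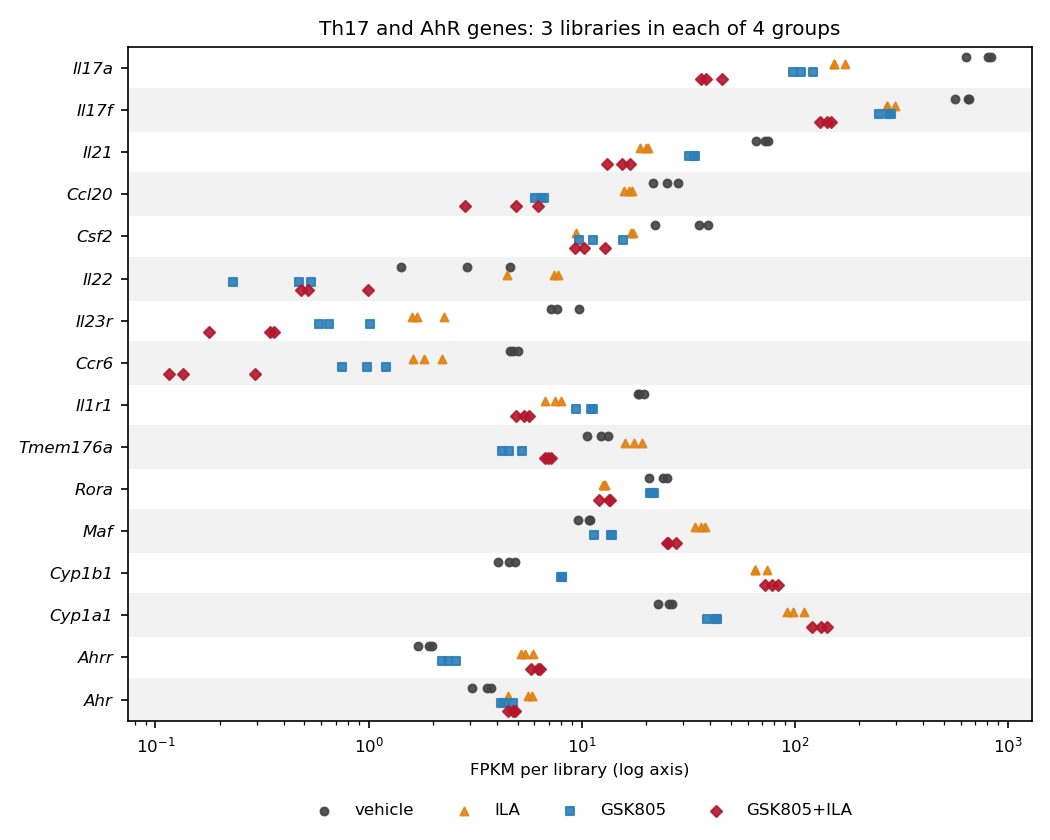
FPKM in each library (points, log x axis) of 16 Th17 and AhR pathway genes (y axis), 3 libraries in each of the 4 groups. For Il17a the libraries with both compounds sit between 36.4 and 45.5 FPKM, below all libraries of the other groups, and for Cyp1b1 they sit between 72.1 and 83.1 FPKM, above all vehicle libraries.

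Among Th17 receptors and surface genes, 6 of 9 tested members were lower and 2 higher (median log2 difference -0.71), and 2 entered through the vehicle group only. Il23r encodes the receptor chain for IL-23, the cytokine that maintains Th17 cells, and stood at 9.67, 7.68 and 7.15 FPKM with vehicle and 0.345, 0.179 and 0.359 FPKM with both compounds. The log2 fold change of Il23r was -2.82 (SE 0.14, limma adjusted p = 3e-08). Ccr6, the receptor for CCL20, fell in the same way, from 4.61, 4.77 and 5.02 FPKM to 0.116, 0.134 and 0.294 FPKM (log2 fold change -2.30, SE 0.11, limma adjusted p = 3.43e-08). Il1r1, the receptor for IL-1, fell from 18.4, 18.5 and 19.5 to 4.94, 5.36 and 5.69 FPKM (log2 fold change -1.65, SE 0.08, limma adjusted p = 2.34e-08). Il12rb1, which partners both the IL-23 and the IL-12 receptor, fell 1.95-fold (log2 fold change -0.96, SE 0.07, limma adjusted p = 6.86e-07). In the other direction, Il6ra rose from 3.32, 3.44 and 3.49 FPKM to 8.91, 8.86 and 7.895 FPKM (log2 fold change 1.11, SE 0.07, limma adjusted p = 2.06e-07) and Il6st, the gp130 chain it signals through, rose 1.504-fold (log2 fold change 0.59, SE 0.07, limma adjusted p = 2.29e-05). Tmem176a, a membrane protein gene, measured 10.6, 13.3 and 12.3 FPKM with vehicle and 6.696, 7.21 and 6.96 FPKM with both compounds (log2 fold change -0.71, SE 0.09, limma adjusted p = 4.79e-05). Its mean with both compounds lay between the 17.6 FPKM of ILA alone and the 4.67 FPKM of GSK805 alone, and differed from each (limma adjusted p = 2.1e-05 and 0.00116). Il23r was lower with both compounds than with ILA alone at 1.85 FPKM or GSK805 alone at 0.751 FPKM (limma adjusted p = 0.000328 and 0.0263), and Ccr6 likewise (1.88 and 0.983 FPKM, adjusted p = 5.71e-05 and 0.000352).

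Transcription factors of the lineage were divided, with 5 of 14 higher and 6 lower (median -0.07). The counts were 3 and 6 after quantile normalization and 3 and 7 after median centring. Rora, a nuclear receptor expressed in Th17 cells, fell from 25.1, 20.7 and 24.04 to 13.4, 13.5 and 12.03 FPKM (log2 fold change -0.79, SE 0.07, limma adjusted p = 1.87e-06). Irf4, an activation-induced factor required for Th17 cells, fell from 311, 277 and 286 to 187, 181 and 195 FPKM (log2 fold change -0.63, SE 0.05, limma adjusted p = 1.2e-06). Fosl2, an AP-1 subunit, and Nfkbiz, an atypical NF-kB regulator, fell, with log2 differences of -0.57 and -0.36 (limma adjusted p = 5.04e-05 and 0.00101). Smad3, which transmits TGF-beta signals, rose from 14.7, 13.7 and 13.5 to 33.4, 31.4 and 30.97 FPKM (log2 fold change 1.14, SE 0.04, limma adjusted p = 5.26e-09). Maf, a factor tied to IL-10 in T cells, rose from 9.66, 10.9 and 10.8 to 25.1, 27.8 and 25.4 FPKM (log2 fold change 1.24, SE 0.08, limma adjusted p = 1.35e-07).

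The promoters of 5 of these genes hold the nuclear receptor half-site within the 250 bases before their RefSeq start sites, and they are printed because these Th17 genes fell. The stretches below are from RefSeq on GRCm38.p6, the patch release of the mm10 build, written 5′ to 3′ on the gene's strand. The half-site AGGTCA, or its complement on the other strand, is in capitals.
Il17a, chr1:20730745-20730830, plus strand: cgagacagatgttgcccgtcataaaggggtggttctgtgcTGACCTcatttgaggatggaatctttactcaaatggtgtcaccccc
Il17f, chr1:20784283-20784368, minus strand: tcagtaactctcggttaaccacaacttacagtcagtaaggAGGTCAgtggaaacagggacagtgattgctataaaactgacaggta
Ccl20, chr1:83116552-83116637, plus strand: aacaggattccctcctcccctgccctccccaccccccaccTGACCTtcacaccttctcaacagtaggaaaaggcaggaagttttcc
Il23r, chr6:67491876-67492105, minus strand: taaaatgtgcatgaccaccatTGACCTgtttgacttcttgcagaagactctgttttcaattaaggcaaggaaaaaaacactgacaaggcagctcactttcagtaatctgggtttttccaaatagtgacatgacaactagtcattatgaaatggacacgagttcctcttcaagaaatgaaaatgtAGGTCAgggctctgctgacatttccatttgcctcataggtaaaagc
Ccr6, chr17:8235959-8236042, plus strand: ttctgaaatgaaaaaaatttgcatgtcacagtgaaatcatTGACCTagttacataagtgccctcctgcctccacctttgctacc
The core lies 120 bases before the start of Il17a and 58 bases before that of Il17f. Over both strands it occurred in 3 of 7 promoters of Th17 cytokines (42.9%) and 2 of 13 promoters of Th17 receptors and surface genes (15.4%), against 16.3% of 32851 RefSeq promoters of the same length and 12.4% of those of tested genes. Over all called genes it was found in 12.9% of promoters of lower genes and 12.1% of those of higher genes. A match describes the letters and is not evidence of binding.

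Most tested genes of the AhR pathway, a list of targets, partners and Ahr itself, moved the other way. Of 10 tested genes of the pathway, 7 were higher and 1 lower (median 0.37), and 1 entered through the treated group only. The counts were 6 and 1 after quantile normalization and 5 and 3 after median centring. Cyp1b1, a cytochrome P450 gene induced by AhR, stood at 4.05, 4.57 and 4.87 FPKM with vehicle and 83.1, 77.9 and 72.1 FPKM with both compounds. It was 14.3-fold higher, the largest rise among the genes named by rule (log2 fold change 3.84, SE 0.07, limma adjusted p = 4.05e-11). Cyp1a1, the classic AhR target, measured 22.8, 26.7 and 25.6 FPKM with vehicle and 142, 133 and 121 FPKM with both compounds (log2 fold change 2.35, SE 0.08, limma adjusted p = 4.51e-09). Ahrr, which encodes the repressor that feeds back on AhR, rose from 1.92, 1.99 and 1.71 to 6.399, 6.24 and 5.77 FPKM (log2 fold change 1.31, SE 0.07, limma adjusted p = 7.04e-08). Nqo1, a quinone reductase that both AhR and NRF2 induce, rose from 1.07, 1.004 and 0.843 to 3.94, 3.41 and 2.47 FPKM (log2 fold change 1.10, SE 0.24, limma adjusted p = 0.00223). Arnt, the DNA-binding partner, rose 1.31-fold (log2 fold change 0.39, adjusted p = 8.07e-05 by limma). Ahr itself stood at 3.75, 3.07 and 3.61 FPKM with vehicle and 4.74, 4.84 and 4.503 FPKM with both compounds (log2 fold change 0.35, SE 0.09, limma adjusted p = 0.00696), a call that ended after quantile normalization or median centring, where the adjusted p reached 0.119. Hsp90ab1, a chaperone that holds unliganded AhR in the cytoplasm, was the 1 member that fell, from 1059.7, 1109.9 and 1043 to 843, 861 and 871 FPKM (log2 fold change -0.32, SE 0.03, limma adjusted p = 6.13e-06).

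The level of Cyp1a1 with both compounds exceeded that with ILA alone (100.2 ± 9.602 FPKM, SD, n = 3, limma adjusted p = 0.00778) and with GSK805 alone (41.5 ± 2.43 FPKM, adjusted p = 1.67e-07). For Cyp1b1 the difference from ILA alone, at 68.03 ± 5.05 FPKM, did not pass (limma adjusted p = 0.0821, log2 difference 0.19), and the difference from GSK805 alone, at 8.05 ± 0.0743 FPKM, did (adjusted p = 8.15e-10). The share of genes higher with both compounds than with ILA alone was 10.2% over all tested genes, and it was 22.5% against GSK805 alone. Promoters of 3 AhR target genes that rose are shown with the core GCGTG, or its complement, in capitals, from RefSeq on GRCm38.p6.
Cyp1a1, chr9:57697519-57697603, plus strand: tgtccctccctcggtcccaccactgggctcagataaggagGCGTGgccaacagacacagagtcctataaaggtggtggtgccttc
Cyp1b1, chr17:79715093-79715177, minus strand: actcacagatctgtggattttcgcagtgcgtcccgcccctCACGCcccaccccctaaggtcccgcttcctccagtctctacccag
Ahrr, chr13:74292332-74292478, minus strand: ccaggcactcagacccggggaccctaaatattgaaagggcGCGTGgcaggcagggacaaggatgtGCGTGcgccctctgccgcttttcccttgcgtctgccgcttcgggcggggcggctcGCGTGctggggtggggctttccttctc
Ahrr holds 3 copies of the core between 107 and 27 bases before its start, and the other two hold 1 each in the window. Over both strands the core was found in 6 of 7 promoters of the pathway (85.7%), in 51.3% of the promoters of tested genes and in 32.4% of all, so it is a common string. Among called genes it was in 50.1% of promoters of higher genes and 54.5% of those of lower genes.

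Cytokines outside the Th17 set also fell. Of 20 tested, 14 were lower and 3 higher (median -1.17). Il2, the T cell growth factor, stood at 592, 619 and 622 FPKM with vehicle and 223, 221 and 277 FPKM with both compounds (log2 fold change -1.35, SE 0.12, limma adjusted p = 6.14e-06). Il3, a haematopoietic growth factor, fell from 9.97, 12.6 and 18.7 to 2.73, 1.13 and 1.22 FPKM (log2 fold change -2.46, SE 0.27, limma adjusted p = 2.4e-05). Xcl1, a chemokine for dendritic cells, measured 35.5, 48.6 and 50.5 FPKM with vehicle and 8.52, 9.11 and 11.4 FPKM with both compounds (log2 fold change -2.10, SE 0.13, limma adjusted p = 1.6e-07). Areg, an epidermal growth factor ligand, measured 27.7, 30.1 and 34.4 FPKM with vehicle and 7.56, 9.49 and 9.67 FPKM with both compounds (log2 fold change -1.68, SE 0.11, limma adjusted p = 2.14e-07). Ccl4, an inflammatory chemokine, and Tnfsf14, the ligand LIGHT, fell, with log2 differences of -1.75 and -1.23 (limma adjusted p = 2.92e-07 and 5.67e-07). Rises were seen for Il16, a CD4 ligand, from 14.4, 14.4 and 14.2 to 37.99, 37.8 and 36.5 FPKM (log2 fold change 1.33, SE 0.04, limma adjusted p = 3.29e-09), and for Ltb, a lymphotoxin subunit, from 80.8, 89.2 and 88.1 to 198, 193 and 202 FPKM (log2 fold change 1.19, SE 0.06, limma adjusted p = 5.67e-08). Il10, the main anti-inflammatory cytokine of T cells, did not pass, with 1.998, 2.53 and 3.702 FPKM with vehicle and 2.42, 2.24 and 2.86 FPKM with both compounds and overlapping groups (log2 difference -0.07, limma adjusted p = 0.701).

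Genes of other helper lineages showed no single direction. The Th1 list had 7 higher and 3 lower of 11 tested (median 0.48, 1 entering through a single group), and its master factor Tbx21 was below the filter in both groups. Il12rb2, the inducible chain of the IL-12 receptor, rose from 2.14, 2.004 and 1.83 to 12.8, 14.5 and 12.3 FPKM (log2 fold change 2.25, SE 0.08, limma adjusted p = 4.51e-09). Il18r1, a receptor for IL-18, rose from 5.26, 4.83 and 5.65 to 12.3, 13.3 and 12.6 FPKM (log2 fold change 1.13, SE 0.07, limma adjusted p = 1.13e-07). Against those receptors, Ifng, the Th1 effector cytokine, fell from 6.65, 6.66 and 9.02 to 1.24, 1.58 and 1.05 FPKM (log2 fold change -1.88, SE 0.15, limma adjusted p = 9.74e-07). The Th1 chemokine receptor gene Cxcr3 fell from 4.69, 4.76 and 4.15 to 1.15, 0.489 and 0.934 FPKM (log2 fold change -1.59, SE 0.16, limma adjusted p = 8.27e-06). The 2 groups did not overlap for Ifng.

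Regulatory T cell genes were higher in 9 of 13 tested and lower in 3 (median 0.49), with 3 entering through a single group. Foxp3, the factor that defines regulatory T cells, was low throughout, at 1.06, 1.59 and 1.05 FPKM with vehicle and 2.17, 2.15 and 2.19 FPKM with both compounds (log2 fold change 0.51, SE 0.10, limma adjusted p = 0.00112). All treated libraries lay above all vehicle libraries, and the test did not separate the pair from ILA alone at 1.68 FPKM or GSK805 alone at 1.84 FPKM (limma adjusted p = 0.116 and 0.223). Nt5e, encoding CD73, the ectoenzyme that makes adenosine, rose from 28.2, 25.7 and 27 to 72.9, 75.8 and 72.1 FPKM (log2 fold change 1.42, SE 0.05, limma adjusted p = 3.29e-09). Izumo1r, encoding folate receptor 4, rose from 1.44, 2.08 and 2.11 to 8.43, 9.64 and 7.61 FPKM (log2 fold change 1.74, SE 0.14, limma adjusted p = 1.12e-06). Tnfrsf18, encoding the costimulatory receptor GITR, measured 22.8, 21.6 and 19.8 FPKM with vehicle and 42.1, 44.4 and 43.5 FPKM with both compounds (log2 fold change 0.99, SE 0.05, limma adjusted p = 6.89e-08). Il2ra, the high-affinity IL-2 receptor chain, and Nrp1, a semaphorin receptor, fell, with log2 differences of -0.37 and -0.54 (limma adjusted p = 1.47e-05 and 0.000935). Follicular helper genes were split 4 higher and 4 lower of 9, with Tox2 up by 0.79 and Cd200, besides Il21, lower, with a log2 difference of -1.09 (limma adjusted p = 3.46e-06 and 1.4e-07). Of 4 tested Th2 genes 2 were higher and none lower. The higher count was 1 without vehicle replicate 3 or without treated replicate 2, and 1 gene was lower after quantile normalization or median centring. Il4, Il5 and Il13 were below the filter.

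Genes of acute T cell activation were mostly lower, 16 of 30 against 7 higher (median -0.29). Nr4a3, an immediate early nuclear receptor induced by antigen receptor signals, stood at 92.3, 97.7 and 105 FPKM with vehicle and 35.7, 39.98 and 35.5 FPKM with both compounds (log2 fold change -1.39, SE 0.07, limma adjusted p = 3.56e-08). Nr4a2, its paralog, fell from 26.9, 30.97 and 35.1 to 9.31, 11.04 and 10.3 FPKM (log2 fold change -1.51, SE 0.10, limma adjusted p = 2.06e-07). Tnfaip3, the feedback inhibitor A20, and Nfkb1, an NF-kB subunit, were close to uniform within groups. Tnfaip3 measured 164, 165 and 165 FPKM with vehicle and 84.6, 90.2 and 89.2 FPKM with both compounds (log2 fold change -0.90, SE 0.04, limma adjusted p = 1.98e-08), and Nfkb1 measured 185, 186 and 185 FPKM with vehicle and 105, 102 and 108 FPKM with both compounds (log2 fold change -0.82, SE 0.05, limma adjusted p = 8.47e-08). Lag3, an inhibitory receptor, rose instead, from 21.1, 22.9 and 22.2 to 53.1, 52.97 and 53.2 FPKM (log2 fold change 1.23, SE 0.07, limma adjusted p = 1.05e-07). Myc, the growth regulator, did not pass, at 124, 127 and 126 FPKM with vehicle and 119, 121 and 142 FPKM with both compounds (log2 difference 0.01, limma adjusted p = 0.902). In the NF-kB list 9 of 16 were lower and 4 higher (median -0.27), among them Nfkbid and Nfkbib lower and Bcl3 and Ikbkb higher by 1.23 and 0.28 on the log2 scale (limma adjusted p = 2.01e-05 and 0.000277).

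By contrast the genes of the T cell receptor and its proximal signalling were mostly higher, 18 of 23 higher and 1 lower (median 0.73). Fyb, an adaptor that links the receptor to integrins, had the largest rise of the list, from 11.8, 13.8 and 13.4 to 50.9, 57.1 and 55.2 FPKM (log2 fold change 1.98, SE 0.07, limma adjusted p = 5.24e-09). Cd4, the coreceptor, measured 41.1, 43.4 and 42.6 FPKM with vehicle and 84.1, 91.5 and 87.7 FPKM with both compounds (log2 fold change 1.03, SE 0.04, limma adjusted p = 1.16e-08). Plcg1, the phospholipase that opens calcium signalling, rose from 11.5, 11.9 and 11.4 to 27.7, 28.7 and 27.02 FPKM (log2 fold change 1.19, SE 0.04, limma adjusted p = 5.26e-09). Bcl10, a signalling adaptor that leads to NF-kB, was the 1 member that fell, with a log2 difference of -0.20 (limma adjusted p = 0.0033). Of the gene segments of the receptor, 45 of 79 tested variable segments (median 0.65) and 20 of 47 joining segments (median 0.91) were higher and none was lower. The shares over all genes were 32.6% higher and 21.0% lower. How many segments entered through the treated group only was not counted, and entry that way favours segments that rise. These short, similar segments can share reads.

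All 8 tested GIMAP genes, a chromosome 6 cluster of GTPases that support lymphocyte survival, were higher (median 1.47), and Gimap7 entered through the treated group only. Gimap4 stood at 26.01, 27.5 and 30.9 FPKM with vehicle and 225, 237 and 236 FPKM with both compounds (log2 fold change 3.01, SE 0.07, limma adjusted p = 5.9e-10), and Gimap3 at 47.9, 46.1 and 43.9 FPKM with vehicle and 216, 226 and 216 FPKM with both compounds (log2 fold change 2.23, SE 0.04, limma adjusted p = 4.05e-11). The treated values lay within a narrow band for both genes. Gimap6 rose 2.2-fold and Gimap5 2.77-fold (limma adjusted p = 5.07e-09 and 5.26e-09). Against GSK805 alone all 8 were higher, and against ILA alone 3 were higher and 1 lower. Over all genes 22.5% were higher than with GSK805 alone, and 10.2% were higher and 8.44% lower than with ILA alone. Gimap4 averaged 231 FPKM with ILA alone and 52.5 FPKM with GSK805 alone (limma adjusted p = 0.935 and 1.6e-08 against the pair). In the wider naive list 7 of 16 were higher than with vehicle and 3 lower, beside 32.6% and 21.0% over all genes. Tcf7, the factor of naive and memory T cells, rose from 139, 144 and 138 to 297, 327 and 298 FPKM (log2 fold change 1.12, SE 0.04, limma adjusted p = 6.05e-09). Lef1, its paralog, rose from 3.94, 4.91 and 4.94 to 13.1, 14.01 and 13.4 FPKM (log2 fold change 1.38, SE 0.07, limma adjusted p = 5.45e-08). Klf2, which drives lymph node homing genes, rose from 2.81, 3.43 and 3.96 to 12.3, 11.4 and 10.8 FPKM (log2 fold change 1.51, SE 0.12, limma adjusted p = 1.48e-06) and was above both single compounds, at 5.54 FPKM with ILA and 5.98 FPKM with GSK805 (adjusted p = 0.000587 and 0.000235). Bach2, a repressor of effector genes, and Slfn2, a quiescence gene, went the other way, with log2 differences of -0.42 and -0.60 (limma adjusted p = 1.17e-05 and 1.28e-05).

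Surface receptors and adhesion genes moved in both directions. Among cytokine receptors of the common gamma and gp130 families 10 of 14 were higher and 4 lower (median 0.42). Il7r, the receptor for the survival cytokine IL-7, measured 29.1, 27.9 and 29.8 FPKM with vehicle and 48.9, 48.9 and 44.7 FPKM with both compounds (log2 fold change 0.69, SE 0.05, limma adjusted p = 6.46e-07), and Il27ra rose by 1.15 on the log2 scale (limma adjusted p = 4.78e-09). Il2rb, the beta chain of the IL-2 receptor, fell from 118, 126 and 121 to 49.4, 48.9 and 45.8 FPKM (log2 fold change -1.32, SE 0.04, limma adjusted p = 3.29e-09). Of 14 integrin and adhesion genes 8 were higher and 5 lower (median 0.30, 1 entering through a single group). Itgb7, a subunit of the gut homing integrin, rose from 31.8, 33.04 and 32.9 to 73.8, 76.9 and 65.9 FPKM (log2 fold change 1.12, SE 0.08, limma adjusted p = 3.16e-07). Itgb2, the beta chain of LFA-1, rose 1.72-fold (adjusted p = 3.24e-08). Itga3, a laminin receptor subunit, fell from 19.2, 20.5 and 19.1 to 5.92, 5.304 and 6.28 FPKM (log2 fold change -1.59, SE 0.06, limma adjusted p = 5.28e-09). All 3 tested Ms4a genes were higher, by 1.06, 0.50 and 0.76 for Ms4a6c, Ms4a6b and Ms4a4b on the log2 scale. Ms4a genes are similar in sequence, so their reads may be shared.

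Chemokine receptors were split 5 higher and 3 lower of 11, 2 of which entered through a single group. The shares over all genes were 32.6% higher and 21.0% lower, for this list and those that follow. S1pr1, which lets T cells leave lymph nodes, rose from 4.16, 3.71 and 4.52 to 12.4, 14.1 and 9.73 FPKM (log2 fold change 1.34, SE 0.16, limma adjusted p = 3.41e-05), and Gpr15, a colon homing receptor, rose by 0.93 on the log2 scale (limma adjusted p = 7.84e-08). The TNF receptor list had 6 higher and 5 lower of 15, with log2 differences of 0.73 for Cd27, 1.14 for Tnfrsf14 and -0.47 for Tnfrsf9, which encodes 4-1BB (limma adjusted p = 9.26e-08, 4.9e-07 and 4.59e-05). Purinergic genes were 4 higher and 3 lower of 8 (2 entering through a single group). Of 18 JAK, STAT and SOCS genes 10 were higher and 1 lower (median 0.19), against 9 and 3 after quantile normalization and 8 and 5 after median centring (median 0.06). Jak3, the kinase of the common gamma chain, and Tyk2 rose by 1.13 and 0.65, while Cish, a feedback inhibitor induced by IL-2, fell, with a log2 difference of -0.88 (limma adjusted p = 6.68e-08, 3.9e-07 and 3.57e-06). In the TGF-beta list 7 of 13 were higher and 3 lower, with Tgfbr2 higher by 0.80 and the corepressor Skil lower, with a log2 difference of -0.45 (limma adjusted p = 9.72e-08 and 8.55e-06). Granzymes and related genes had 1 higher and 3 lower of 8, 1 of the lower ones entering through a single group. Gzmb, a cytotoxic protease, measured 9.68, 4.38 and 7.53 FPKM with vehicle and 3.18, 1.55 and 3.05 FPKM with both compounds (log2 fold change -1.17, SE 0.24, limma adjusted p = 0.00168), and reads of the similar granzyme genes may be shared.

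**Figure D3:**
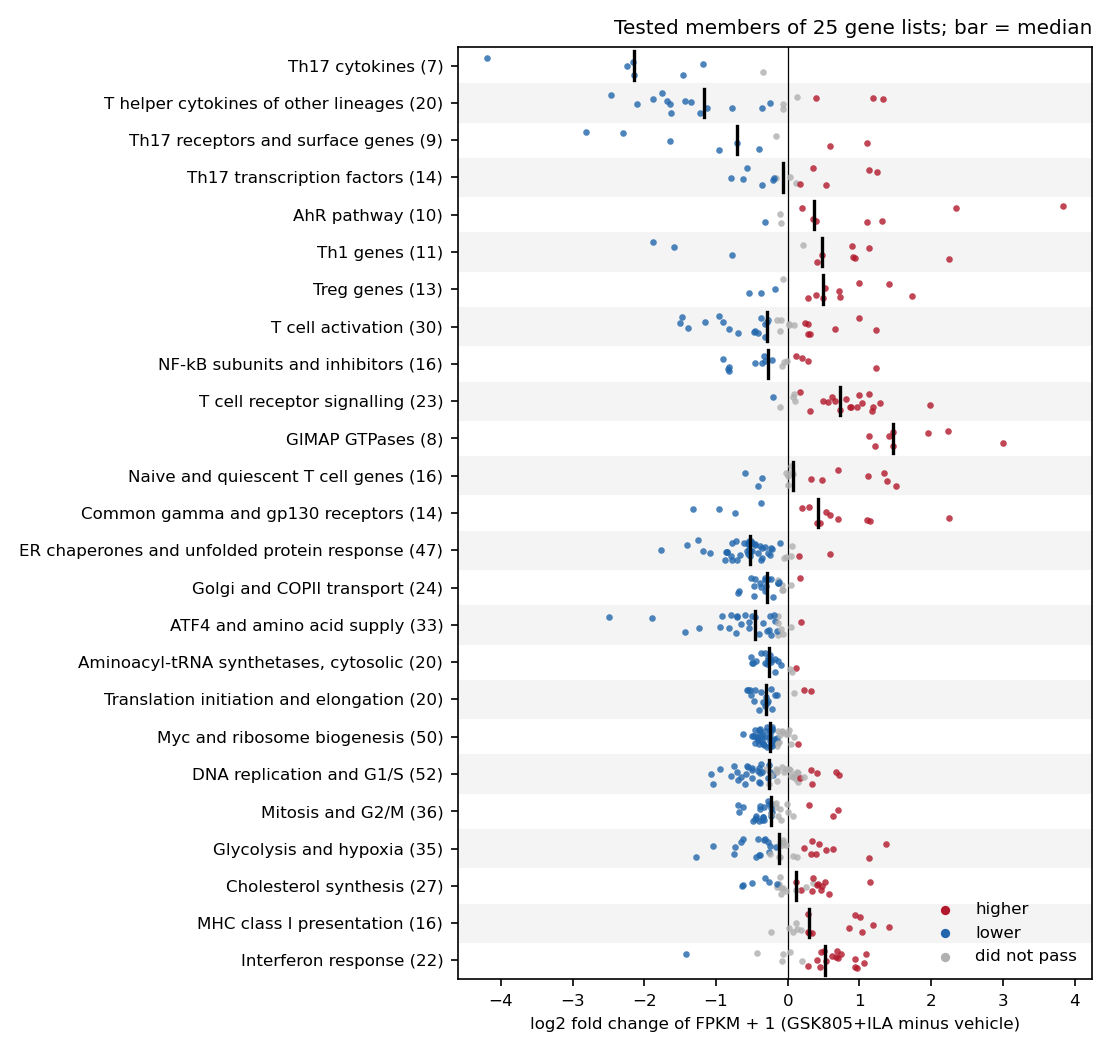
Log2 difference between both compounds and vehicle (x axis) of each tested member (points, coloured by call) of 25 gene lists (y axis, number tested in brackets), with the list median as a black bar. All GIMAP members lie above 1 and all Th17 cytokines lie below 0, while the ER, ATF4 and translation lists lie mostly below 0.

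Secretory pathway genes were mostly lower. Of 47 tested genes for chaperones of the endoplasmic reticulum (ER), the translocon and the unfolded protein response, 41 were lower and 2 higher (median -0.52), against 21.0% lower over all genes. Hspa5, the ER chaperone BiP, stood at 929.5, 972 and 972 FPKM with vehicle and 547, 543 and 570.2 FPKM with both compounds (log2 fold change -0.79, SE 0.05, limma adjusted p = 1.01e-07). Creld2, an ER stress-induced disulfide isomerase, measured 130.3, 144 and 139 FPKM with vehicle and 58.9, 54.03 and 59.2 FPKM with both compounds (log2 fold change -1.25, SE 0.06, limma adjusted p = 2.35e-08). The groups were far apart for both genes. Dnajb9, a BiP cochaperone, fell from 56.7, 55.8 and 65.1 to 20.1, 22.4 and 22.3 FPKM (log2 fold change -1.41, SE 0.06, limma adjusted p = 1.74e-08). Manf, a secreted ER stress protein, fell from 119, 125 and 125 to 56.6, 54.2 and 61.5 FPKM (log2 fold change -1.09, SE 0.05, limma adjusted p = 3.16e-08), and Syvn1, the ubiquitin ligase HRD1 of ER-associated degradation, fell, with a log2 difference of -0.71 (adjusted p = 4.17e-08). Wfs1, an ER membrane protein gene, and Edem2, which acts on misfolded glycoproteins, were the 2 that rose, by 0.59 and 0.16 on the log2 scale (limma adjusted p = 0.000503 and 0.0175), and the second call ended under 5 of 16 alternative settings. Those included leaving out vehicle replicate 1 or 3 or treated replicate 1 (limma adjusted p = 0.0501, 0.0654 and 0.0695). Xbp1, which encodes a transcription factor of the response and is controlled largely by splicing, did not pass at 141, 140.3 and 142 FPKM with vehicle and 139, 132 and 138 FPKM with both compounds (log2 difference -0.05, adjusted p = 0.216). Under 1 of 16 alternative settings Xbp1 did pass (limma adjusted p = 0.000732).

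Of the 47 ER genes, 23 were higher with both compounds than with ILA alone and 2 were lower. Over all genes 10.2% were higher than with ILA alone and 8.44% lower. Against GSK805 alone 2 ER genes were higher and 38 lower, beside 22.5% and 18.1% over all genes. Hspa5 averaged 390.0 ± 18.97 FPKM with ILA alone and 851 ± 45.1 FPKM with GSK805 alone (SD, n = 3), and the level with both compounds lay between and differed from each (limma adjusted p = 6.63e-05 and 1.9e-06). The list held 1.56% ± 0.0161 of all FPKM with vehicle and 1.03% ± 0.0243 with both compounds (SD, n = 3, two-sided exact permutation test, p = 0.1, the smallest that 3 against 3 allows). Promoters of members are printed because many hold the ER stress element, which is CCAAT, any 9 bases and CCACG. The element, on either strand, is in capitals in these RefSeq stretches from GRCm38.p6.
Hspa5, chr2:34771985-34772083, plus strand: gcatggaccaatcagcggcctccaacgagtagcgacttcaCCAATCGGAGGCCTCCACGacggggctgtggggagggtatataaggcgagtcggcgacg
Creld2, chr15:88819480-88819578, plus strand: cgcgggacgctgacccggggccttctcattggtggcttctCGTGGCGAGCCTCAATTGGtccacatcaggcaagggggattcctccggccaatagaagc
Hsp90b1, chr10:86705493-86705694, minus strand: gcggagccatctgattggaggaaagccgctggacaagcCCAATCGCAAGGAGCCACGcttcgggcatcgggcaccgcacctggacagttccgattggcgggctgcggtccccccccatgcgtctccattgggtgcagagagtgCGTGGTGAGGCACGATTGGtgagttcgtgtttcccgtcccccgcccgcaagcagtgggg
Pdia6, chr12:17266451-17266549, plus strand: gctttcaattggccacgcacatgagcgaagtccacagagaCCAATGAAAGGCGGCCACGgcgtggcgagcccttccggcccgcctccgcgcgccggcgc
Derl3, chr10:75893202-75893300, plus strand: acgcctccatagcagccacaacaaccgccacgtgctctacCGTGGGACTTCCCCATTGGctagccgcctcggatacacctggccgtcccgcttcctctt
Calr, chr8:84847035-84847133, minus strand: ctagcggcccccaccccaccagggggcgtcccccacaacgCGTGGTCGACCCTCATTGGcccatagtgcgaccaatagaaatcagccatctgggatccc
Canx, chr11:50325760-50325858, minus strand: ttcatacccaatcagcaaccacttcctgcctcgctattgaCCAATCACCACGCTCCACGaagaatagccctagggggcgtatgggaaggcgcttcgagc
The element lies 65 bases before the start of Hspa5 and 98 bases before that of Pdia6, and Hsp90b1 holds 2 copies. It was found in 10 of 45 promoters of the list (22.2%), in 0.157% of promoters of tested genes and in 0.119% of all. The chaperones Hsp90b1 (GRP94) and Pdia6, a disulfide isomerase, fell, with log2 differences of -0.77 and -0.85, and Derl3, a degradation component, fell likewise at -1.77 (limma adjusted p = 1.35e-07, 3e-07 and 2.67e-06). The lectin chaperones Calr and Canx fell, with log2 differences of -0.32 and -0.52 (adjusted p = 0.000324 and 1.01e-06), and the Calr call ended under 1 of 16 alternative settings.

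Downstream of the ER, 18 of 24 Golgi and vesicle transport genes were lower and 1 higher (median -0.29). Surf4, a cargo receptor, measured 202, 212 and 207 FPKM with vehicle and 149.8, 144 and 151 FPKM with both compounds (log2 fold change -0.48, SE 0.03, limma adjusted p = 2.15e-07), and Sec23b, a coat subunit, fell, with a log2 difference of -0.68 (adjusted p = 1.36e-06). Genes of the ATF4 response and amino acid supply were lower in 26 of 33 and higher in 1 (median -0.46, 3 entering through a single group). Cth, which makes cysteine, fell furthest, from 21.2, 23.1 and 21.9 to 3.37, 2.94 and 2.97 FPKM (log2 fold change -2.49, SE 0.11, limma adjusted p = 1.98e-08). Slc7a3, a cationic amino acid transporter, fell from 12.9, 13.2 and 12.7 to 2.68, 2.73 and 2.83 FPKM (log2 fold change -1.90, SE 0.06, limma adjusted p = 2.6e-09), and Atf3, a stress-induced factor, from 18.1, 17.3 and 17.1 to 5.73, 6.02 and 5.83 FPKM (log2 fold change -1.43, SE 0.06, limma adjusted p = 8.95e-09). Atf4 itself measured 492, 518 and 505 FPKM with vehicle and 419, 424 and 431 FPKM with both compounds (log2 fold change -0.25, SE 0.03, limma adjusted p = 5.59e-05). The Atf4 fall was lost after quantile normalization, which gave a log2 difference of 0.02. Ddit4, an inhibitor of mTORC1, was the 1 member that rose, by 0.19 (adjusted p = 0.0359), a call that ended under 8 of 16 alternative settings. Leaving out vehicle replicate 1 or 3, or treated replicate 1 or 2, gave limma adjusted p = 0.138, 0.0617, 0.0789 and 0.119 for it.

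Genes that build and run the translation machinery were lower by small amounts. Of 20 cytosolic tRNA synthetases 17 were lower and 1 higher (median -0.26), while of 17 mitochondrial ones 4 were higher and 2 lower. The shares over all genes were 32.6% higher and 21.0% lower. Gars, which charges glycine tRNA, measured 212, 226 and 212 FPKM with vehicle and 153, 153 and 157 FPKM with both compounds (log2 fold change -0.49, SE 0.04, limma adjusted p = 2.28e-06). Dars, the 1 that rose, did so by 0.12 (limma adjusted p = 0.039) and turned to -0.02 after median centring. The Dars call also ended without vehicle replicate 1 or 3, or treated replicate 1 or 3 (limma adjusted p = 0.0828, 0.103, 0.154 and 0.08). Of 50 genes of the Myc network and ribosome biogenesis 37 were lower and 1 higher (median -0.25). Npm1, the nucleolar chaperone nucleophosmin, measured 518, 521 and 530.1 FPKM with vehicle and 362, 381 and 399.6 FPKM with both compounds (log2 fold change -0.46, SE 0.04, limma adjusted p = 3.4e-06), and Nop56, a component of small nucleolar particles, measured 88.9, 85.2 and 87.03 FPKM with vehicle and 63.3, 63.8 and 69.1 FPKM with both compounds (log2 fold change -0.41, SE 0.04, limma adjusted p = 5.02e-06). The libraries of the 2 groups did not overlap for either. Against ILA alone the direction differed, with 38 higher and 1 lower, beside 10.2% and 8.44% over all genes. Initiation and elongation factors were lower in 17 of 20 and higher in 2 (median -0.31). Eif6, which keeps ribosomal subunits apart, fell, with a log2 difference of -0.51 and Eif4ebp2, a repressor of cap-dependent translation, rose by 0.32 (limma adjusted p = 1.71e-06 and 1.51e-05).

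Of 83 tested ribosomal protein genes 49 were lower and 1 higher, with a median log2 difference of -0.16 that became -0.02 after quantile normalization and -0.30 after median centring. Their share of all FPKM was 14.2% ± 0.45 with vehicle and 12.9% ± 0.356 with both compounds (SD, n = 3, two-sided exact permutation test, p = 0.1). The 50 most abundant genes together held 22.1% ± 0.636 and 22.3% ± 0.101 (p = 0.8 by the same exact test).

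**Figure D4:**
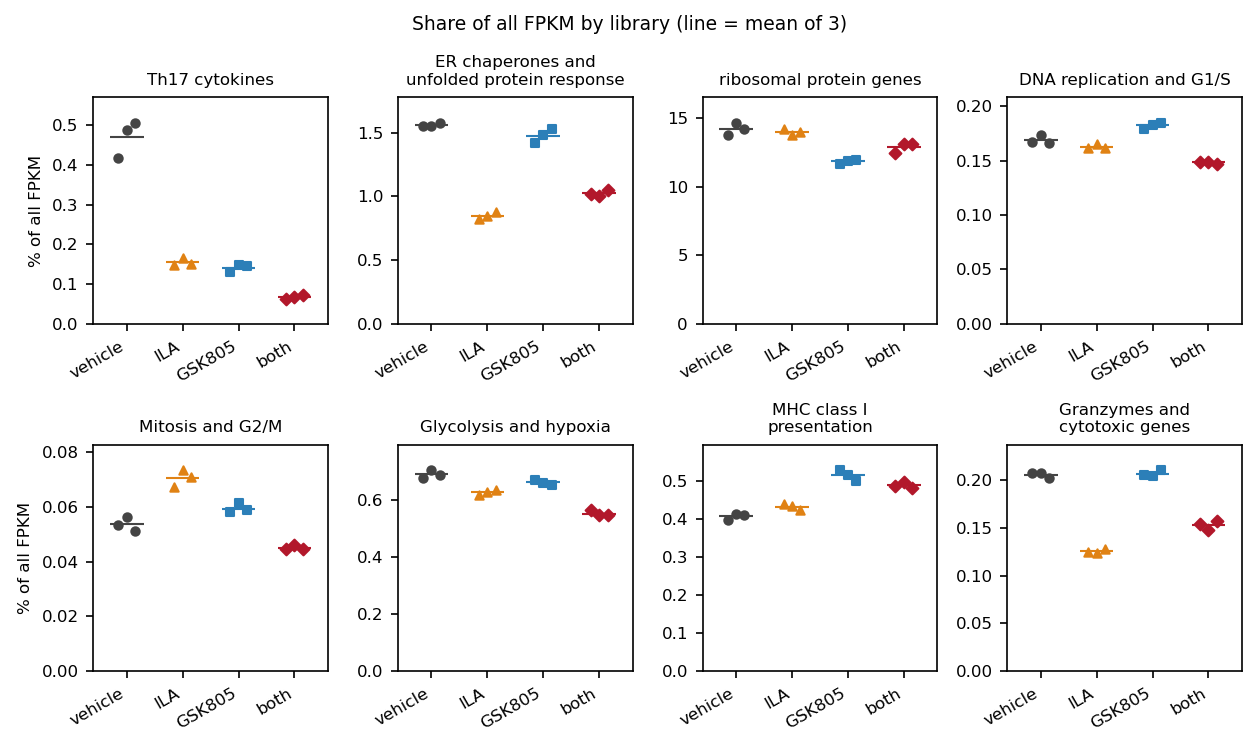
Share of all FPKM (percent, y axis from 0) held by 8 gene classes in each library (points) of the 4 groups, with a line at the mean of 3 libraries. The ER list sits at 1.55% to 1.58% with vehicle and 1.00% to 1.05% with both compounds, and the Th17 cytokines sit at 0.416% to 0.506% and 0.062% to 0.0718%.

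Cell cycle genes that passed were mostly lower. Of 52 tested genes of DNA replication and the G1/S transition 26 were lower and 6 higher (median -0.26, 6 entering through a single group). Mcm7, a subunit of the replicative helicase, measured 21.1, 22.3 and 20.5 FPKM with vehicle and 11.4, 11.9 and 12.4 FPKM with both compounds (log2 fold change -0.79, SE 0.06, limma adjusted p = 4.1e-07). Its partner Mcm5 fell from 17.6, 20.97 and 19.1 to 9.62, 9.12 and 7.64 FPKM (log2 fold change -1.05, SE 0.10, limma adjusted p = 3.83e-06). Pcna, the polymerase clamp, fell less, from 84.2, 83.04 and 84.9 to 64.5, 65.3 and 60.4 FPKM (log2 fold change -0.40, SE 0.04, limma adjusted p = 3.9e-06). Cdc6, which loads the helicase, fell from 2.73, 3.06 and 2.92 to 0.647, 1.12 and 0.822 FPKM (log2 fold change -1.07, SE 0.11, limma adjusted p = 1.27e-05). Ccnd3, a G1 cyclin of lymphocytes, and Rpa1, the single-strand binding protein, rose by 0.67 and 0.71 on the log2 scale (limma adjusted p = 3.91e-06 and 6.66e-06). The G1/S share of FPKM was 0.169% with vehicle and 0.149% with both compounds (two-sided exact permutation test, p = 0.1).

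Of 36 genes of mitosis 22 were lower and 3 higher (median -0.24, 2 entering through a single group). Cdc20, an activator of the anaphase-promoting complex, measured 13.5, 17.4 and 16.3 FPKM with vehicle and 8.86, 9.97 and 9.32 FPKM with both compounds (log2 fold change -0.68, SE 0.09, limma adjusted p = 8.01e-05), and Aurka, a spindle kinase, measured 4.71, 6.07 and 4.35 FPKM with vehicle and 2.48, 2.69 and 3.01 FPKM with both compounds (log2 fold change -0.69, SE 0.10, limma adjusted p = 0.00011). Mki67, the proliferation marker Ki-67, fell from 15.2, 13.7 and 13.2 to 10.2, 11.3 and 11.3 FPKM (log2 fold change -0.33, SE 0.06, limma adjusted p = 0.000581). Against ILA alone 33 of the 36 were lower with both compounds and none higher (median -0.53), beside 8.44% lower over all genes. Mki67 averaged 19.2 ± 0.636 FPKM with ILA alone and 15.8 ± 0.498 with GSK805 alone (SD, n = 3), both above the level with both compounds (limma adjusted p = 2.83e-05 and 5.43e-05). Of 5 cyclin-dependent kinase inhibitors 2 were higher and 2 lower (1 of the lower ones entering through a single group). The lower count was 1 without vehicle replicate 1 and 3 after quantile normalization or median centring. Cdkn1a, encoding p21, fell from 72.8, 82.98 and 82.9 to 33.9, 33.9 and 31.2 FPKM (log2 fold change -1.24, SE 0.06, limma adjusted p = 2.54e-08), while Cdkn1b, encoding p27, rose from 35.2, 32.3 and 34.01 to 42.5, 44.1 and 44.1 FPKM (log2 fold change 0.36, SE 0.05, limma adjusted p = 0.00015).

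Several replication genes that fell carry a site for E2F, the family of factors that opens S phase, in the window before their start. The site (TTTGGCGC, TTTCCCGC, TTTGGCGG or TTTCCCGG, or a complement) is in capitals in these RefSeq stretches from GRCm38.p6.
Mcm5, chr8:75109320-75109407, plus strand: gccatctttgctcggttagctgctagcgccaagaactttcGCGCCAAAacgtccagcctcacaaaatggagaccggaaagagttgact
Cdc6, chr11:98907973-98908060, plus strand: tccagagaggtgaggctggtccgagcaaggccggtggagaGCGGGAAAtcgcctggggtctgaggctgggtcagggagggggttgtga
Mcm7, chr5:138172001-138172088, minus strand: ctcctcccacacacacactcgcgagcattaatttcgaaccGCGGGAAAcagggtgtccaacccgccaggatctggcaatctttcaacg
Such a site was found in 16 of 51 promoters of the replication list (31.4%) and in 1 of 32 of the mitosis list (3.12%), against 5.94% of the promoters of tested genes and 3.32% of all. Rpa1, which rose, was among the replication genes with a site. Over all called genes the site was found in 6.74% of promoters of lower genes and 5.38% of those of higher genes.

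Metabolic genes were divided. Glycolysis and hypoxia genes were lower in 16 of 35 and higher in 9 (median -0.12, 1 entering through a single group), and the list's share of FPKM went from 0.689% to 0.552% (two-sided exact permutation test, p = 0.1). Pgk1, a glycolytic kinase, measured 433, 475 and 471 FPKM with vehicle and 279.7, 270.1 and 278 FPKM with both compounds (log2 fold change -0.73, SE 0.04, limma adjusted p = 8.3e-08), and Ndrg1, a hypoxia-induced gene, measured 199, 220.1 and 211 FPKM with vehicle and 104, 97.9 and 103 FPKM with both compounds (log2 fold change -1.04, SE 0.05, limma adjusted p = 4.36e-08). Eno2, an enolase, rose from 2.88, 2.97 and 2.51 to 9.22, 9.202 and 7.98 FPKM (log2 fold change 1.37, SE 0.10, limma adjusted p = 5.59e-07). Acly, which supplies acetyl-CoA for lipid synthesis, fell from 228, 232 and 222 to 72.96, 71.9 and 74.2 FPKM (log2 fold change -1.62, SE 0.04, limma adjusted p = 6.84e-10). Fatty acid synthesis genes had 4 higher and 5 lower of 12, and cholesterol synthesis genes 11 and 6 of 27. Dhcr7, the last enzyme of cholesterol synthesis, rose from 1.07, 1.02 and 0.942 to 3.54, 3.03 and 3.79 FPKM (log2 fold change 1.14, SE 0.12, limma adjusted p = 1.22e-05), while Insig1, a feedback inhibitor of the pathway, fell, with a log2 difference of -0.62 (adjusted p = 3.16e-06). Nuclear-encoded respiratory chain genes had 9 higher and 12 lower of 50 (median -0.03), and tricarboxylic acid cycle genes 7 and 6 of 23. Over all genes 32.6% were higher and 21.0% lower. Polyamine genes were lower in 7 of 10 and higher in none (median -0.29). Odc1, the rate-limiting enzyme, measured 415, 470.1 and 436 FPKM with vehicle and 291, 304 and 307 FPKM with both compounds (log2 fold change -0.55, SE 0.06, limma adjusted p = 1.56e-05), and Smox, spermine oxidase, measured 180.1, 196 and 178 FPKM with vehicle and 107, 105 and 104 FPKM with both compounds (log2 fold change -0.80, SE 0.04, limma adjusted p = 3.84e-08).

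Stress response genes outside the ER moved both ways. NRF2 target genes were 11 higher and 6 lower of 23 (1 entering through a single group). Srxn1, a sulfiredoxin, fell from 24.3, 25.9 and 26.3 to 8.303, 6.55 and 7.02 FPKM (log2 fold change -1.68, SE 0.09, limma adjusted p = 4.66e-08), and Gsr, glutathione reductase, rose by 0.82 on the log2 scale (adjusted p = 4.43e-06). Heat shock genes were lower in 11 of 19 and higher in 2 (median -0.18), or in 4 without treated replicate 2. Hsp90aa1, the inducible cytosolic HSP90, and Hspd1, the mitochondrial chaperonin, fell, with log2 differences of -0.67 and -0.40 (limma adjusted p = 6.96e-09 and 8.27e-06). The near-identical Hspa1a and Hspa1b, which encode HSP70, rose by 0.70 and 0.76 (adjusted p = 0.00559 and 0.0042), and their reads cannot be assigned with certainty.

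Circadian clock genes were lower in 9 of 16 and higher in 5 (median -0.23, 2 entering through a single group). Arntl, encoding the core activator BMAL1, measured 10.03, 9.504 and 9.84 FPKM with vehicle and 4.93, 5.86 and 5.42 FPKM with both compounds (log2 fold change -0.76, SE 0.07, limma adjusted p = 2.9e-06). Nfil3, a repressor linked to the clock, fell from 29.8, 34.9 and 30.3 to 9.94, 8.75 and 9.96 FPKM (log2 fold change -1.63, SE 0.09, limma adjusted p = 8.3e-08), and the repressor Cry1 fell, with a log2 difference of -0.55 (adjusted p = 7.01e-06). Bhlhe41, another repressor, rose from 0.423, 0.486 and 0.548 to 2.47, 1.97 and 2.34 FPKM (log2 fold change 1.13, SE 0.11, limma adjusted p = 6.93e-06). The half-site AGGTCA was found in 5 of 18 clock promoters (27.8%) and the E box CACGTG in 6 of 18 (33.3%), against 12.4% and 10.4% of the promoters of tested genes. The ATF4 site (TGATGCAAT, TGATGAAAT, TGATGTAAT or TGATGGAAT) was found in 2 of 34 promoters of the ATF4 list (5.88%) and in 0.424% of the promoters of tested genes.

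Interferon and antigen presentation genes were mostly higher. In the interferon list 16 of 22 tested were higher and 1 lower (median 0.52), but 8 of them entered through a single group and 11 members, among them Ifit1, Oasl2 and Rsad2, were below the filter. Gbp7, a guanylate-binding protein gene, rose by 1.06 and Stat2, which transmits type I interferon signals, by 0.75 (limma adjusted p = 1.13e-05 and 1.66e-05). Ifit3, an antiviral gene, fell from 3.39, 4.22 and 4.03 to 0.646, 0.638 and 1.22 FPKM (log2 fold change -1.42, SE 0.15, limma adjusted p = 1.08e-05). Of 16 genes of MHC class I presentation 10 were higher and none lower (median 0.29, 1 entering through a single group). Tap1, which pumps peptides into the ER, measured 6.196, 6.94 and 6.55 FPKM with vehicle and 13.3, 15.4 and 13.9 FPKM with both compounds (log2 fold change 1.01, SE 0.06, limma adjusted p = 9.34e-08), and Psmb10, an immunoproteasome subunit, measured 5.45, 5.15 and 5.603 FPKM with vehicle and 15.6, 16.3 and 16.2 FPKM with both compounds (log2 fold change 1.41, SE 0.10, limma adjusted p = 3.85e-07). B2m, the invariant light chain, did not pass at 514, 566 and 562 FPKM with vehicle and 564, 593 and 569 FPKM with both compounds (adjusted p = 0.241). Under 1 of 16 alternative settings B2m did pass (limma adjusted p = 0.000102), while its difference changed sign after median centring.

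Survival and death genes were split 9 higher and 4 lower of 21, beside 32.6% and 21.0% over all genes. After median centring 6 were higher and 7 lower. Bmf, a proapoptotic BH3-only gene, rose from 1.099, 1.08 and 1.08 to 6.32, 6.92 and 6.99 FPKM (log2 fold change 1.89, SE 0.08, limma adjusted p = 8.4e-09), and Bcl2l11, encoding BIM of the same class, rose from 11.3, 9.61 and 10.1 to 25.8, 24.3 and 24.4 FPKM (log2 fold change 1.19, SE 0.08, limma adjusted p = 2.33e-07). Bcl2a1d, an antiapoptotic gene with near-identical copies that can share its reads, fell from 58.4, 65.1 and 65.2 to 21.8, 22.9 and 23.9 FPKM (log2 fold change -1.42, SE 0.05, limma adjusted p = 5.26e-09). The p53 target list had 7 higher and 7 lower of 17 on the deposited scale, against 3 and 7 after quantile normalization and 2 and 8 after median centring. The higher count was 4 without vehicle replicate 1 or treated replicate 2, and 3 without vehicle replicate 3 or treated replicate 1. Perp, a desmosome and apoptosis gene of the list, fell from 46.9, 55.7 and 51.97 to 12.5, 13.6 and 11.9 FPKM (log2 fold change -1.94, SE 0.09, limma adjusted p = 2.88e-08). Histone and DNA modifiers had 8 higher and 8 lower of 20, beside the same shares over all genes. Hdac7, a histone deacetylase abundant in T cells, rose by 1.26, while Ezh2, the methyltransferase of Polycomb complexes, fell, with a log2 difference of -0.66 (limma adjusted p = 2.6e-09 and 1.3e-06).

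The medians of the follicular helper, Th2, naive, chemokine receptor, TGF-beta, mitochondrial tRNA synthetase, cholesterol, fatty acid, respiratory chain, tricarboxylic acid cycle, NRF2, BCL2 and TNF receptor lists were close to 0 on the log2 scale. Each of them changed sign or came to 0.00 after quantile normalization, median centring or both, so no direction is given for these lists. The median of the CD8 T and NK cell marker list also changed sign under both scalings. The medians of the other lists described above kept their sign under both.

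In the same fit, ILA alone differed from vehicle at 33.7% of genes higher and 24.8% lower, 58.5% in all, and GSK805 alone at 16.3% higher and 7.36% lower, 23.7% in all. These comparisons share the vehicle libraries with that of both compounds, so the list medians with each are given side by side without a test.

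**Figure D5:**
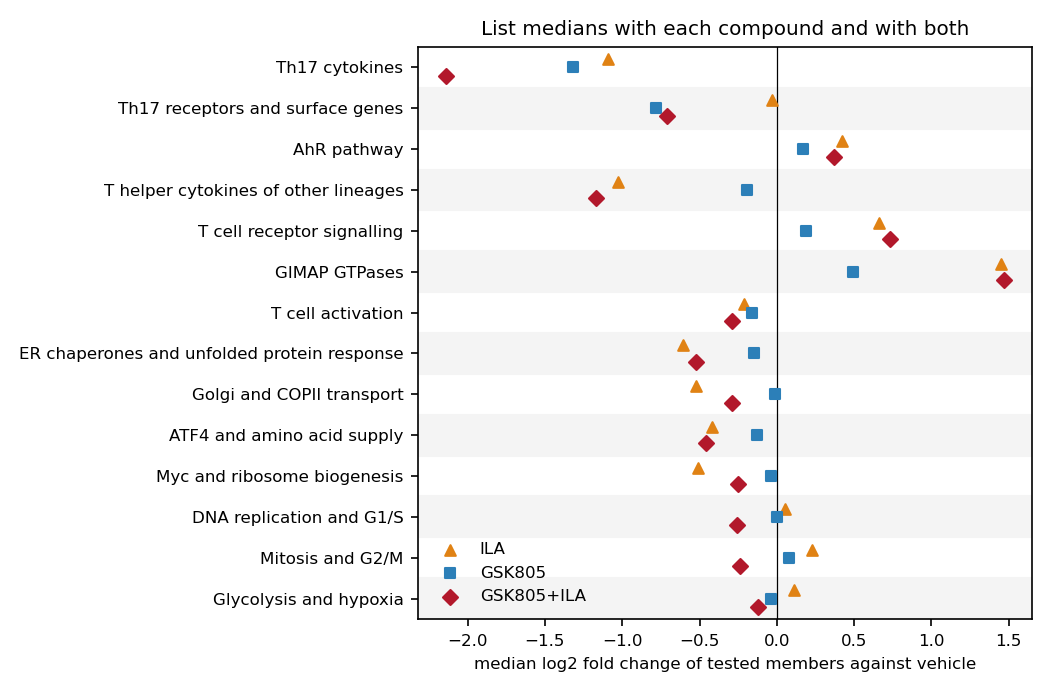
Median log2 difference from vehicle (x axis) over the tested members of 14 gene lists (y axis) with ILA alone (triangles), GSK805 alone (squares) and both compounds (diamonds), all read against the same vehicle libraries. The ER list lies at -0.61 with ILA, -0.15 with GSK805 and -0.52 with both, and the mitosis list lies at 0.23, 0.08 and -0.24.

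Several of the largest changes lay outside these lists. Npas4, an activity-dependent transcription factor best known from neurons, rose from 0.349, 0.354 and 0.246 to 8.34, 7.25 and 8.64 FPKM (log2 fold change 2.78, SE 0.11, limma adjusted p = 6.96e-09). AC124502.5, an annotated transcript beside it on chromosome 19, rose from 0.1797, 0.166 and 0.193 to 6.05, 7.17 and 6.76 FPKM (log2 fold change 2.70, SE 0.10, limma adjusted p = 5.24e-09), and reads of the 2 may not be separable. Asb2, a ubiquitin ligase subunit, rose from 3.41, 4.54 and 4.504 to 25.8, 26.6 and 29.6 FPKM (log2 fold change 2.47, SE 0.09, limma adjusted p = 3.91e-09). It averaged 58.1 FPKM with ILA alone, above the level with both compounds (limma adjusted p = 3.2e-05), and 2.34 FPKM with GSK805 alone (adjusted p = 4.47e-09). Treml2, an immunoglobulin-like receptor, and Rasgrp4, a Ras activator, rose 4.16-fold and 3.81-fold (limma adjusted p = 3.29e-09 and 7.42e-09). Hic1, a transcriptional repressor found in gut T cells, measured 3.33, 5.78 and 5.81 FPKM with vehicle and 20.7, 23.8 and 23.6 FPKM with both compounds (log2 fold change 2.01, SE 0.15, limma adjusted p = 1.22e-06). Among the falls, Klrc1, encoding the inhibitory receptor NKG2A, went from 47.6, 56.1 and 54.04 to 8.74, 10.4 and 9.83 FPKM (log2 fold change -2.33, SE 0.10, limma adjusted p = 1.98e-08). Zbtb32, a repressor induced by activation, measured 44.2, 46.2 and 43.5 FPKM with vehicle and 9.02, 8.995 and 9.34 FPKM with both compounds (log2 fold change -2.17, SE 0.11, limma adjusted p = 5.24e-08), and Plek, a protein kinase C substrate, measured 22.9, 21.4 and 23.8 FPKM with vehicle and 4.08, 4.46 and 4.26 FPKM with both compounds (log2 fold change -2.17, SE 0.11, limma adjusted p = 3.17e-08). Mcpt2, a mast cell protease gene with close paralogs, fell from 5.91, 7.95 and 7.495 to 1.87, 0.924 and 0.441 FPKM (log2 fold change -2.01, SE 0.26, limma adjusted p = 6.34e-05). Groups without overlap were a condition for naming these genes, so their separation is not a further result. With ILA alone Npas4, Hic1, Rasgrp4, Plek and Mcpt2 averaged 8.89, 29.1, 18.0, 4.50 and 1.03 FPKM. None of these differed from both compounds by the test (limma adjusted p = 0.517, 0.143, 0.101, 0.813 and 0.997). Treml2 at 48.9 FPKM and Zbtb32 at 5.68 FPKM with ILA alone lay further from vehicle than with both compounds (limma adjusted p = 0.00515 and 0.00377). Klrc1 at 16.9 FPKM with ILA alone lay less far (limma adjusted p = 0.000823).

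Among the 6 most abundant calls in each direction, by mean over both groups, the largest difference was that of Mmp10, a secreted metalloprotease, at 741, 886 and 879 FPKM with vehicle and 268, 268 and 285 FPKM with both compounds (log2 fold change -1.60, SE 0.06, limma adjusted p = 5.28e-09). The actin genes Actb and Actg1 rose from 508, 542 and 506 FPKM to 928, 883 and 839 FPKM and from 322, 352 and 337 FPKM to 616, 612 and 581 FPKM (log2 differences 0.77 and 0.84, limma adjusted p = 5.57e-08 and 2.37e-08). Tmsb4x and Pfn1, which bind actin monomers, rose by 0.35 and 0.36 (adjusted p = 0.00225 and 1.1e-05). Cd53, a tetraspanin of leukocytes, rose by 0.23 (adjusted p = 0.000211), a call that ended after median centring. Eef2, an elongation factor, rose by 0.23 while Eef1a1, another, fell, with a log2 difference of -0.22 (adjusted p = 4.52e-05 and 9.66e-05). Fau, a ribosomal fusion protein gene, and Ptma, prothymosin alpha, fell, with log2 differences of -0.19 and -0.28 (limma adjusted p = 0.0129 and 0.00112), and the calls ended under 3 and 1 of 16 alternative settings. For Fau these included leaving out vehicle replicate 2 or treated replicate 1 (limma adjusted p = 0.0537 and 0.0542).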

How the data were processed

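RNA sequencing of mouse Th17 cultures gave 1 table per library of FPKM values for 29522 genes, which the authors computed and deposited. Per the labels' protocols, total RNA was extracted with RNAiso Plus. The submitters' processing notes name FastQC 0.11.2, Bowtie with no version, and the mm10 build, and the sources used here do not give the counting program, its annotation or the strand setting. Without strand, reads of overlapping genes cannot be told apart, and 78 of the 184 genes named here overlap another annotated gene, 58 of them on the opposite strand.

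Depth was recovered from the FPKM steps with GENCODE vM21 exon lengths, at which 98.6% to 98.8% of values were within 0.1 of a whole read. Values were transformed to log2(FPKM + 1). Genes averaging 1 FPKM or more in vehicle or treated cells were fitted with limma 3.58.1 in R 4.3.3, with trend and robust moderation, over all 12 libraries with 1 mean per group, with Benjamini-Hochberg adjustment over 13058 genes. The fit was tested on simulated data. Shares of FPKM were compared by exact permutation over libraries. Motifs were searched in RefSeq promoters of GRCm38.p6, from 250 bases before to 50 after the start.

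The members, the 53 gene lists and the tests were chosen with earlier results of these data known. Up to 4 members per list with the smallest adjusted p in the list's main direction were preferred for naming, with up to 2 of the opposite direction. The 12 largest rises and 12 largest falls were also named. They were taken from called genes whose groups did not overlap and whose mean reached 5 FPKM in a group. The 6 most abundant calls each way and a set of Th17, AhR and cytokine genes were named too. Any other gene named was chosen after its values were seen. A few genes are not reported here.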

Additional observations from a re-analysis of the deposited data

How the results depend on the processing

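The 7002 calls became 6312 to 6692 when any 1 library of either group was left out (3861 to 4118 higher, 2437 to 2574 lower), 6531 with the 6 libraries alone, 6680 without a filter and 7298 with voom on recovered reads, an alternative chosen after seeing the data. The count of lower genes went from 2744 to 4456 after median centring, and that of higher genes from 4258 to 2955. By quantile normalization the counts were 3304 higher and 3641 lower. No shared effect of the replicate number was visible, as the correlations of same-numbered libraries' deviations were 0.036, 0.003 and -0.015. A fit with the replicate number as a block called 7033 genes. The labels do not say whether cultures were paired, and these values cannot settle it.

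Of the 184 genes named, 171 kept direction and call under every alternative in which they were tested, and 17 of the genes named were not tested with the filter at 5 FPKM. The log2 difference changed sign after quantile normalization for Atf4 (0.018) and after median centring for B2m (-0.0656), Dars (-0.0176) and Myc (-0.125). It also did so for Il10 without vehicle replicate 3 (0.1048) and for Myc without treated replicate 3 (-0.0637). Leaving out 1 library at a time gave -0.2198 to 0.1048 for Il10 and -0.0637 to 0.0597 for Myc. None of these sign changes passed the test. The difference in share of the 50 most abundant genes ranged from -0.129 to 0.463 percentage points over the same omissions, negative without vehicle replicate 1. Of 93 list counts, 39 moved by over 1.5 times under at least 1 alternative, 27 of them after median centring. The cause was not tested. Depth limits genes near 1 FPKM, where 1 read in a 1 kb gene is worth 0.0426 to 0.0537 FPKM.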

Other observations

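Some markers of other cells passed the test at low levels. Cd8b1, a CD8 coreceptor chain, measured 3.47, 3.71 and 5.003 FPKM with vehicle and 1.77, 1.62 and 1.69 FPKM with both compounds (limma adjusted p = 7.25e-05). Cd74, the invariant chain of MHC class II, measured 9.06, 9.43 and 10.6 FPKM with vehicle and 6.75, 6.47 and 6.06 FPKM with both compounds (limma adjusted p = 0.000104). Cd68, a macrophage gene, measured 2.87, 4.26 and 4.13 FPKM with vehicle and 9.23, 7.796 and 6.603 FPKM with both compounds (limma adjusted p = 9.86e-05), and Pecam1, an adhesion gene of endothelium and leukocytes, measured 4.09, 4.69 and 4.55 FPKM with vehicle and 6.46, 7.24 and 6.54 FPKM with both compounds (limma adjusted p = 5.03e-05).

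Gm10095, a processed pseudogene picked out after its values were seen, stood at 0.5605, 0.404 and 0.402 FPKM with vehicle and 0.445, 607 and 1.94 FPKM with both compounds, so that a single treated library was far above the other five, and it did not pass (limma adjusted p = 0.276).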
